A study of Mus musculus with 48 samples.

Results

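Genes that mark the cells of the blood vessel wall were followed in the accumbens shell, a part of the ventral striatum that takes part in reward. The genes were 10 named markers, 5 of endothelial cells (Cldn5, Pecam1, Flt1, Slco1a4 and Ly6c1) and 5 of mural cells (Pdgfrb, Rgs5, Acta2, Tagln and Myh11). All 10 were found by symbol among the 37620 genes of the deposited gene table, and all 10 were among the 15350 genes that passed the filter on low values. The mice were from the heterogeneous stock-collaborative cross (HS-CC), an outbred stock. They had been selected for high or low ethanol preference and were of selection generation 4. The groups were 12 High females, 12 Low females, 12 High males and 12 Low males, with 1 library per mouse. The shell was cut out by laser microdissection, and poly(A) RNA was sequenced. No genotype, treatment or age was given in the sources used here, and both lines come from the same stock. Families, litters and cages were not given either, so a p-value here speaks only of how these mice vary.

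Endothelial cells line the vessel, and in the brain they are sealed by tight junctions and carry transporters that form the blood-brain barrier. Mural cells lie on the outer side: pericytes sit on capillaries, and smooth muscle cells wrap arteries and arterioles and set their width by contraction. Endothelial cells secrete platelet-derived growth factor, which recruits pericytes through the receptor encoded by Pdgfrb.

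Column totals of the deposited normalised values ran from 13579559 to 14561911, and 19708 to 20888 genes were above 0 per library. All 10 markers of the medium spiny neuron, the main neuron of this region, were present in every library, with Drd1 at a median of 2586.5 and Penk at a median of 29765 normalised read counts. The summed level of 5 cortical pyramidal neuron markers ran from 117 to 5072, with the highest in Low male replicate 6, and its part in the results was not tested. The lowest median correlation with the other libraries was 0.967, in High male replicate 1, against 0.971 for the next library. High male replicate 1 also had the lowest share of exon reads in last exons, 44.9%, where the 48 libraries reached up to 58.4%. Levels were tested as log2(value + 0.5 ppm), where 1 ppm of the mean column total was 14.1 units, with limma and Benjamini-Hochberg adjustment over 15350 genes. A gene was called at an adjusted p under 0.05.

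None of the 10 vascular genes was called between the High and Low lines, in either sex alone, between the sexes, or for spread between mice. What the genes did show was co-variation between mice. The 3 smooth muscle genes moved together across mice in each of the 4 groups, and some endothelial genes moved together more loosely. Over the 48 mice together and with the pseudocount of 0.5 ppm, none of the 25 pairs of an endothelial with a mural gene and none of the 6 pairs of a pericyte with a smooth muscle gene passed the test.

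Acta2 encodes smooth muscle actin, the contractile filament of arterial smooth muscle. Its normalised read counts ran from 108 to 706 with a median of 336 in High females, against 65 to 350 with a median of 175.5 in Low females. In males they ran from 81 to 668 with a median of 197.5 in the High line, against 64 to 335 with a median of 229 in the Low line. The 3 highest libraries of all 48 were High (706, 668 and 539), and the ranges of the groups overlapped. Listed exons of Acta2 start between 34315580 and 34329780 on chromosome 19 of mm9, on the minus strand.

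Tagln encodes transgelin, an actin-binding protein of smooth muscle. Its counts ran from 92 to 300 with a median of 182 in High females, against 69 to 200 with a median of 124.5 in Low females. In males the range was 60 to 250 with a median of 123.5 in the High line, against 61 to 183 with a median of 124.5 in the Low line. High females thus held the highest median, and their range overlapped those of the other groups. Of the 25-base words in Tagln transcripts, 59.2% also occur in the annotated gene Gm48529, which was not analysed here, so the Tagln values are uncertain.

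Myh11 encodes the smooth muscle myosin heavy chain, the motor that pulls on actin. Its counts ran from 91 to 382 with a median of 180.5 in High females, against 65 to 245 with a median of 125.5 in Low females. In males they ran from 81 to 342 with a median of 128 in the High line, against 43 to 176 with a median of 126.5 in the Low line. The highest male, High male replicate 2 at 342, was also the highest male for Acta2 and Tagln.

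Pdgfrb and Rgs5 mark pericytes. Pdgfrb, the receptor for platelet-derived growth factor, ran from 231 to 426 with a median of 338 in High females, against 234 to 425 with a median of 299.5 in Low females. In males it ran from 222 to 466 with a median of 285 in the High line, against 229 to 530 with a median of 357.5 in the Low line. The order of the lines by median was opposite in the sexes, within overlapping ranges. Rgs5, a regulator of G protein signalling enriched in pericytes, had medians of 1089.5 in High females and 1110 in Low females, and of 1163.5 in High males and 1035 in Low males. Over all mice Rgs5 ran from 825 to 1695.

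Cldn5 encodes claudin-5, the main tight junction protein of brain endothelium. Its counts ran from 379 to 596 with a median of 474 in High females, against 378 to 702 with a median of 484.5 in Low females. In males they ran from 375 to 622 with a median of 446 in the High line, against 370 to 567 with a median of 517 in the Low line. The ranges of the groups overlapped.

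Pecam1, an adhesion molecule of endothelial cell contacts, and Flt1, the VEGF receptor 1, had nearly the same medians in all groups. Pecam1 medians were 191.5 in High females and 192 in Low females, and 190.5 in High males and 189.5 in Low males, within an overall range of 105 to 290. Flt1 medians were 480 in High females and 467 in Low females, and 478 in High males and 449.5 in Low males, within an overall range of 388 to 632.

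Slco1a4 encodes an organic anion transporter of the blood-brain barrier. Its counts ran from 490 to 938 with a median of 662.5 in High females, against 585 to 949 with a median of 796 in Low females. In males they ran from 521 to 908 with a median of 682.5 in the High line, against 537 to 1398 with a median of 759 in the Low line. The 3 highest libraries were Low males, at 1398, 1300 and 1026, and all other libraries were at 949 or less.

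Ly6c1 encodes a small surface protein anchored in the membrane of mouse endothelial cells and of some white blood cells. Its counts ran from 3 to 519 with a median of 266 in High females, against 74 to 528 with a median of 366.5 in Low females. In males they ran from 67 to 573 with a median of 285 in the High line, against 190 to 459 with a median of 367 in the Low line. High female replicate 3, at 3, lay far below the next lowest library, at 67, while its Cldn5 was 448 and its Flt1 483. Of the 25-base words in Ly6c1 transcripts, 39.1% also occur in Ly6c2 and 17% in Ly6a, so reads of these genes may have been exchanged. Ly6c2 itself was listed at 0 to 58 with a median of 3, and Ly6a at 45 to 414 with a median of 195.

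**Figure D1:**
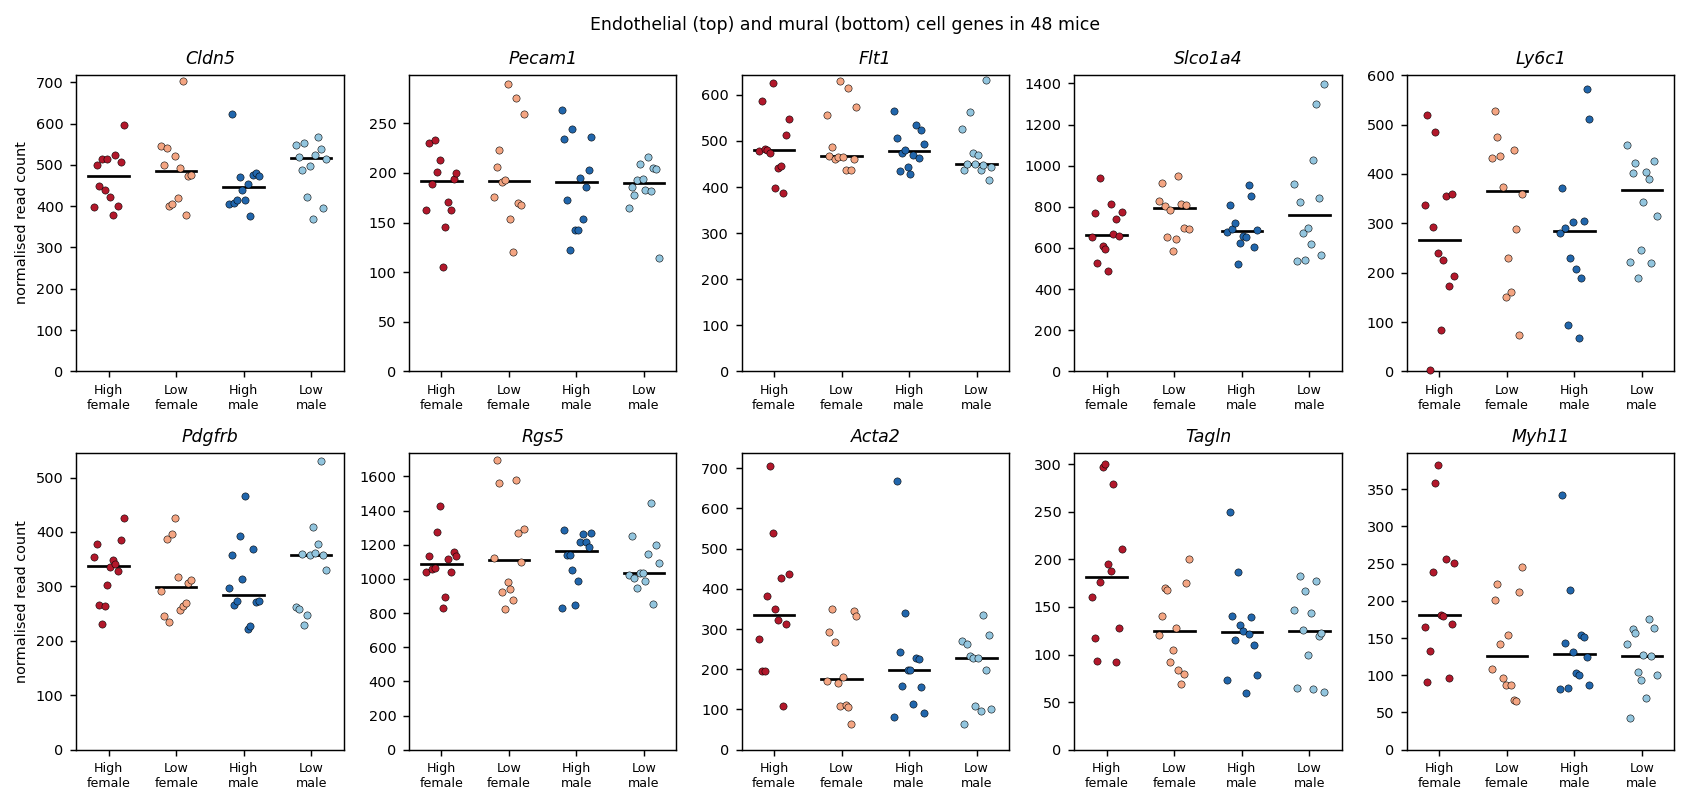
Normalised read counts (vertical axes, starting at 0) of the 10 vascular genes in 4 groups of 12 mice; each point is 1 mouse and each line a group median. The High female medians of Acta2 (336), Tagln (182) and Myh11 (180.5) lie above those of the other groups, Low male Slco1a4 reaches 1398, and the groups overlap for every gene.

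Across genes, levels were compared per kilobase of all annotated exons joined. Claudin-5 was highest at 337 ± 49.8 normalised read counts per kb (SD, n = 48), followed by Rgs5 at 247 ± 43.8. Ly6c1 came next at 182 ± 81.2, then Slco1a4 at 116 ± 28.0, Acta2 at 113 ± 64.9 and Tagln at 71.0 ± 29.8. Pdgfrb was at 58.8 ± 12.5, Flt1 at 36.2 ± 4.53, Pecam1 at 30.6 ± 6.52 and Myh11 at 20.2 ± 9.98. Cldn5 and Rgs5, Pdgfrb and Flt1, and Pecam1 and Myh11 were the only neighbours in this order that differed by more than the larger of their SDs. With the length of the longest transcript, chosen as an alternative after the data were seen, Ly6c1 came first at 363 ± 161 and Flt1 passed Pdgfrb, so the order depends on the length used. The last listed exon held 97.2% of the pooled exon counts of Rgs5, 66.4% of Pdgfrb and 29.5% of Acta2, and Cldn5 has a single exon. Counts thus need not scale with length by either measure, and the order is not a ranking of transcript numbers.

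The line comparison asked whether the vascular genes differed between High and Low mice, averaged over the sexes. Of all 15350 genes, 43 were called (0.28%), and 0 of the 10 vascular genes. At an unadjusted p under 0.05 there were 1392 genes (9.07%), among them 2 of the 10. Myh11 differed by 0.37 ± 0.17 log2 units, High minus Low (SE, p = 0.0341, adjusted p = 0.482). Acta2 differed by 0.43 ± 0.21 (p = 0.0431, adjusted p = 0.522). Tagln differed by 0.27 ± 0.15 (p = 0.0775, adjusted p = 0.608). These 3 were the only ones of the 10 above 0, where 48.5% of all genes were above 0, and since they moved together across mice they do not count as separate observations. Without High male replicate 2 the unadjusted p was 0.0817 for Acta2, 0.134 for Tagln and 0.0642 for Myh11.

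All 5 endothelial genes and both pericyte genes were below 0 in the same comparison. Slco1a4 differed by -0.17 ± 0.086 log2 units (p = 0.0526, adjusted p = 0.554). Ly6c1 differed by -0.45 ± 0.28 (p = 0.111, adjusted p = 0.663). Without High female replicate 3, the library at 3, the Ly6c1 difference was -0.25 (p = 0.231), and within females it was -0.11, against -0.51 with that library. Cldn5 differed by -0.085 ± 0.059, with a 95% confidence interval from -0.20 to 0.03. Pecam1 had an interval from -0.23 to 0.13, Flt1 from -0.11 to 0.09, Pdgfrb from -0.18 to 0.16 and Rgs5 from -0.16 to 0.13. Rgs5 and Flt1 turned to slightly above 0 with library weights, and they and Pdgfrb did so without single libraries. The median difference was -0.09 over the endothelial genes and 0.27 over the mural genes, against -0.003 over all genes tested. The mural median was the value of Tagln, a smooth muscle gene, while the pericyte genes Pdgfrb and Rgs5 were at -0.012 and -0.017. In bulk tissue, fewer cells of a type and less RNA per cell cannot be told apart.

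Within females the differences of the smooth muscle genes were wider. Acta2 differed by 0.78 ± 0.29 log2 units between High and Low females (SE, p = 0.0108, adjusted p = 0.854). Tagln differed by 0.49 ± 0.21 (p = 0.0238) and Myh11 by 0.55 ± 0.24 (p = 0.0239), both with an adjusted p of 0.957. In that comparison 4 genes were called (0.0261%) and 719 passed unadjusted (4.68%), among them 0 and 3 of the 10 vascular genes. In males 0 genes were called (0%) and 1064 passed unadjusted (6.93%), with 0 of the 10 vascular genes in either count. Between High and Low males Acta2 differed by 0.08 ± 0.29, Tagln by 0.05 ± 0.21 and Myh11 by 0.18 ± 0.24. Leaving out single libraries brought the male difference of Acta2 down to -0.076 and that of Tagln to -0.048. In females the unadjusted p was 0.0528 for Tagln and 0.0562 for Myh11 without High female replicate 6.

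The difference of the line effect between the sexes was tested directly as an interaction. For Acta2 it was 0.70 ± 0.42 log2 units, females minus males (p = 0.101, adjusted p = 1.00), with a 95% confidence interval from -0.14 to 1.53. For Tagln it was 0.44 ± 0.30 (p = 0.141) and for Myh11 0.37 ± 0.34 (p = 0.269). No gene of the 15350 was called by limma and 368 passed unadjusted (2.4%), none of them among the 10.

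**Figure D2:**
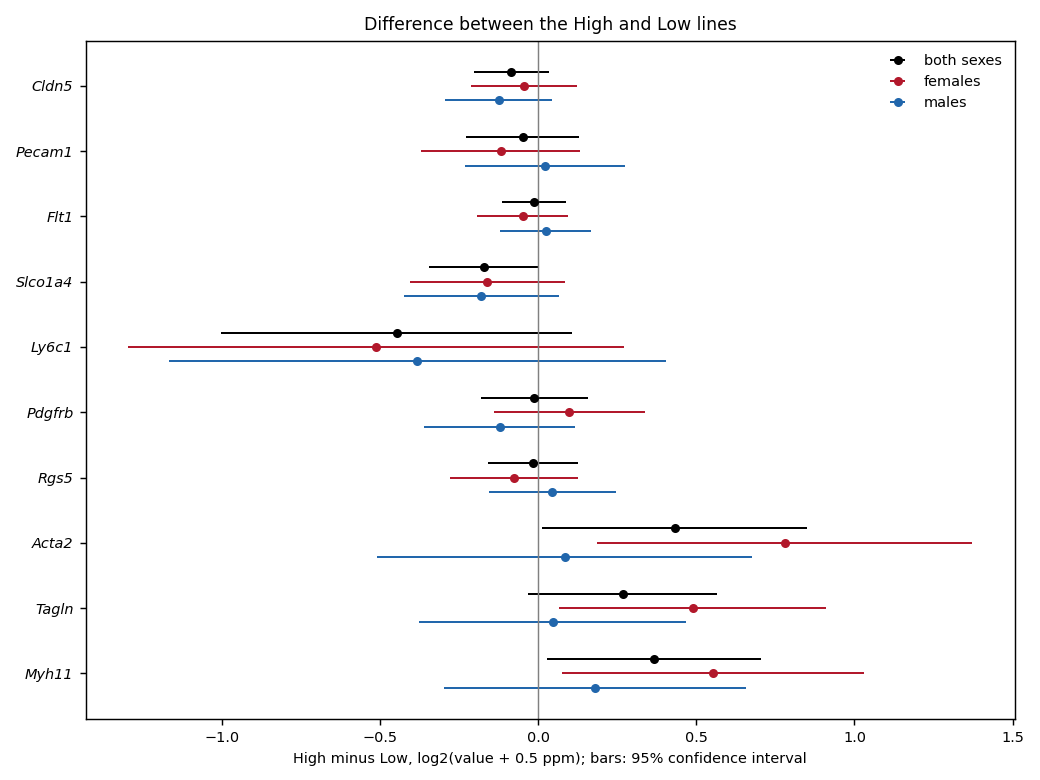
Difference High minus Low in log2(value + 0.5 ppm) (horizontal axis) for each vascular gene, in both sexes together, in 24 females and in 24 males; bars are 95% confidence intervals from limma. The intervals of Acta2, Tagln and Myh11 lie above 0 in females and span 0 in males, and no adjusted p was under 0.05.

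Between females and males, averaged over the lines, 12 genes were called (0.0782%) and 647 passed unadjusted (4.21%), with 0 of the 10 vascular genes in either count. Myh11 differed by 0.33 ± 0.17 log2 units, females minus males (p = 0.0532), Tagln by 0.29 ± 0.15 (p = 0.0565) and Acta2 by 0.37 ± 0.21 (p = 0.0833), each with an adjusted p of 0.982. The wider vessel lists are counted beside all genes, of which 47.7% were above 0 and 4.21% passed unadjusted. Of 22 tight junction and barrier genes 20 were above 0 and 5 passed unadjusted, and of 30 further endothelial genes 25 were above 0 and 3 passed. Of 17 further pericyte genes 13 were above 0 and 4 passed, of 12 basement membrane genes 11 and 2, and of 10 tested fibroblast genes 9 and 4. Of 14 tested further smooth muscle genes 10 were above 0 and 2 passed, and of 17 VEGF, angiopoietin and PDGF genes 12 were above 0 and 0 passed. No gene of these lists was called. Genes of the same list can move together across mice, so they do not count as separate observations. Lists of neurons and glia are not counted here, so these counts do not show a difference particular to vessels.

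Spread between mice was compared by absolute deviations from the group median, and 9 genes were called (0.0586%) and 609 passed unadjusted (3.97%), with 0 of the 10 vascular genes in either count. Slco1a4 had the smallest p among the 10 there, at -0.10 ± 0.054 log2 units, High minus Low (SE, p = 0.0753, adjusted p = 0.998), and its coefficient of variation was 34.9% in Low males and 14.6 to 18.5% in the other groups.

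Other genes of the vessel wall were taken from wider lists, and none of their tested members was called in any of the 6 comparisons. Of 22 genes of tight junctions and barrier transport, 7 were above 0 and 15 below in the line comparison, with a median of -0.01. The amino acid transporter Slc38a5 averaged 64.1 ± 23.0 in High and 79.5 ± 16.3 in Low mice (SD, n = 24 each), a difference of -0.32 log2 units (adjusted p = 0.178). Plvap, a protein of fenestrated endothelium, averaged 147 ± 62.8 in High and 123 ± 61.9 in Low mice (0.24, adjusted p = 0.734). Of 30 further endothelial identity genes, 11 were above 0 and 19 below, with a median of -0.02. Ecscr, an endothelial surface protein, came nearest to the threshold, at 37.7 ± 11.6 in High and 51.0 ± 13.7 in Low mice (-0.39, adjusted p = 0.0647). Nos3, the endothelial nitric oxide synthase, averaged 224 ± 50.4 in High and 273 ± 71.2 in Low mice (-0.27, adjusted p = 0.299).

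Of 17 further pericyte genes, 7 were above 0 and 10 below, with a median of -0.01. The potassium channel partners Abcc9 and Kcnj8 had differences of 0.20 (adjusted p = 0.506) and -0.14 (adjusted p = 0.611). Of 20 further smooth muscle genes 14 were tested, and 10 of these were above 0 and 4 below, with a median of 0.09. Myl9, the regulatory light chain of smooth muscle myosin, averaged 283 ± 81.5 in High and 241 ± 54.7 in Low mice (0.21, adjusted p = 0.529). Tpm1, a tropomyosin also made outside smooth muscle, averaged 4034 ± 542 in High and 3681 ± 395 in Low mice (0.13, adjusted p = 0.413). Of 17 VEGF, angiopoietin and PDGF ligands and receptors, 9 were above 0 and 8 below. Pgf, a ligand of the Flt1 receptor, averaged 41.4 ± 16.4 in High and 28.6 ± 7.79 in Low mice (0.40, adjusted p = 0.178), and Pdgfd 16.1 ± 5.41 in High and 20.8 ± 6.38 in Low mice (-0.27, adjusted p = 0.307). Of 12 basement membrane genes, 3 were above 0 and 9 below, with Col4a1 at -0.13 (adjusted p = 0.672) and Nid2 at -0.17 (adjusted p = 0.753).

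Lists of other cell types held no called gene in the line comparison either. In females, where the smooth muscle genes passed unadjusted, 8 of 10 oligodendrocyte genes also did so, all 10 of them below 0 with a median of -0.33. The summed oligodendrocyte list had medians of 16314 in High females and 20500 in Low females, and of 16936 in High males and 17986 in Low males. No gene of the list was at 0 throughout a group, and the list's part in the smooth muscle differences was not tested. Of the 10 tested fibroblast genes, 8 were above 0 and 2 below in the line comparison. Of 5 tested genes of choroid plexus and ependyma all 5 were above 0, with Kl at 0.35 (adjusted p = 0.12). Of 10 astrocyte genes 9 were above 0, of 8 microglia genes 3, with C1qc at 0.43 (adjusted p = 0.11), and of 3 tested genes of perivascular macrophages 1. The blood list, led by the haemoglobin genes, had 3 of its 5 tested genes above 0, with Hbb-bs at 0.12 (adjusted p = 0.882) and Hba-a1 at 0.13 (adjusted p = 0.888).

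Co-variation was measured as the correlation of log2 values between the 48 mice after each value was centred on its group, with p from 100000 permutations of mice within groups. Of 45 pairs of vascular genes, 5 passed by Pearson r after adjustment over the 45. The strongest was Acta2 with Myh11, with a Pearson r of 0.937 and a Spearman rho of 0.938. Acta2 with Tagln had an r of 0.919 and a rho of 0.929, and Tagln with Myh11 an r of 0.870 and a rho of 0.869. For all 3 pairs the permutation p was 1e-05 for r and for rho, the smallest these permutations can give, and the adjusted p was 0.00015 for r. Without the 2 mice farthest from the median of the first gene, r was 0.924, 0.906 and 0.870 for the same pairs. Within the 4 groups of 12 mice r of these pairs ran from 0.774 to 0.953.

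A pair of endothelial relations also passed. Pecam1 with Flt1 had an r of 0.582 (permutation p = 2e-05, adjusted p = 0.000225) and a rho of 0.631 (p = 1e-05), and r was 0.524 without the 2 farthest mice. Cldn5 with Flt1 had an r of 0.492 (permutation p = 0.00072, adjusted p = 0.00648) and a rho of 0.520 (p = 0.00032), and r was 0.447 without the 2 farthest mice. Pecam1 with Flt1 reached 0.766 among the 24 females and 0.317 among the 24 males, and Cldn5 with Flt1 0.661 among females and 0.242 among males. The difference between the sexes was not tested. Cldn5 with Rgs5 came next, at 0.414 (adjusted p = 0.0508), and passed with a pseudocount of 0.1 or 2 ppm. Cldn5 with Pecam1 had an r of 0.384 (permutation p = 0.0103, adjusted p = 0.0662), which did not pass. Its rho of 0.407 did (permutation p = 0.00508, adjusted p = 0.0381). Within the 4 groups, where 180 relations were tested, 1 pair of an endothelial and a mural gene passed. Pecam1 with Rgs5 in the 12 High females had an r of 0.768 (permutation p = 0.00353, adjusted p = 0.0454) and a rho of 0.760 (p = 0.00546), and r was 0.396 without the 2 farthest mice. Over the 48 mice this pair had an r of 0.340 (permutation p = 0.0293, adjusted p = 0.147). The 10 pairs of an endothelial and a pericyte gene went both ways within groups. Their r ran from -0.224 to 0.768 in High females and from -0.354 to 0.534 in Low females. In males it ran from -0.355 to 0.466 in the High line and from -0.723 to 0.302 in the Low line.

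Over all mice together, the remaining pairs were weak. The 15 pairs of an endothelial and a smooth muscle gene had a median r of 0.089, from -0.084 to 0.266. Their r ran from -0.024 to 0.492 in the 24 High mice and from -0.198 to 0.209 in the 24 Low mice. Cldn5 with Acta2, Tagln and Myh11 was at 0.458, 0.375 and 0.492 in High, and at -0.084, -0.198 and -0.084 in Low. Pecam1 with Tagln went the other way, at -0.024 in High and 0.174 in Low. Among endothelial pairs, Pecam1 with Slco1a4 was at 0.139 in High and -0.419 in Low. The difference between the lines was not tested. The pericyte genes Pdgfrb and Rgs5 did not move together, with an r of -0.194 (permutation p = 0.193, adjusted p = 0.453) and a rho of -0.184 (p = 0.222), and r was negative in each of the 4 groups. Over all 45 pairs the median r was 0.145, 8.89% were at 0.5 or more and 20% at 0.3 or more. The share at 0.5 or more was 100% of the 3 smooth muscle pairs and 10% of the 10 endothelial pairs. It was 0% for every other kind of pair. Over all 117803575 pairs of tested genes the median r was 0.004, 4.23% were at 0.5 or more and 14.3% at 0.3 or more.

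**Figure D3:**
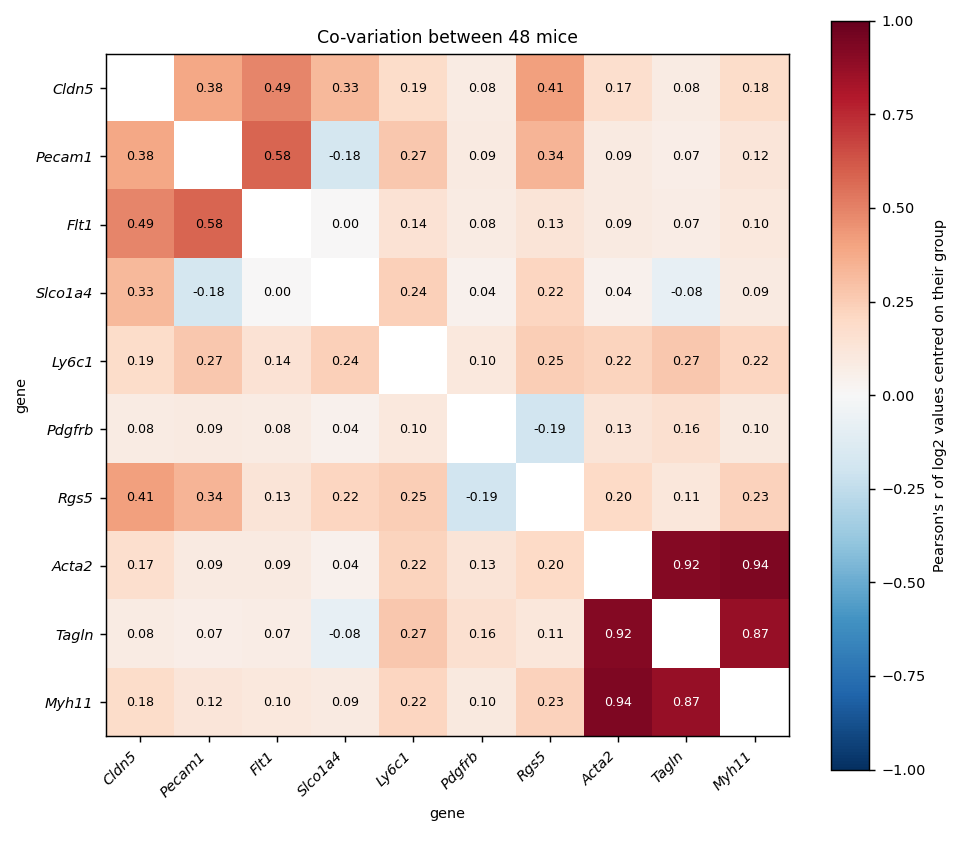
Pearson's r between 48 mice for each pair of vascular genes, from log2 values centred on their group; rows and columns are genes and colour runs from -1 (blue) to 1 (red). The block of Acta2, Tagln and Myh11 stands at 0.87 to 0.94, the endothelial genes reach 0.58, and Pdgfrb with Rgs5 is at -0.19.

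**Figure D4:**
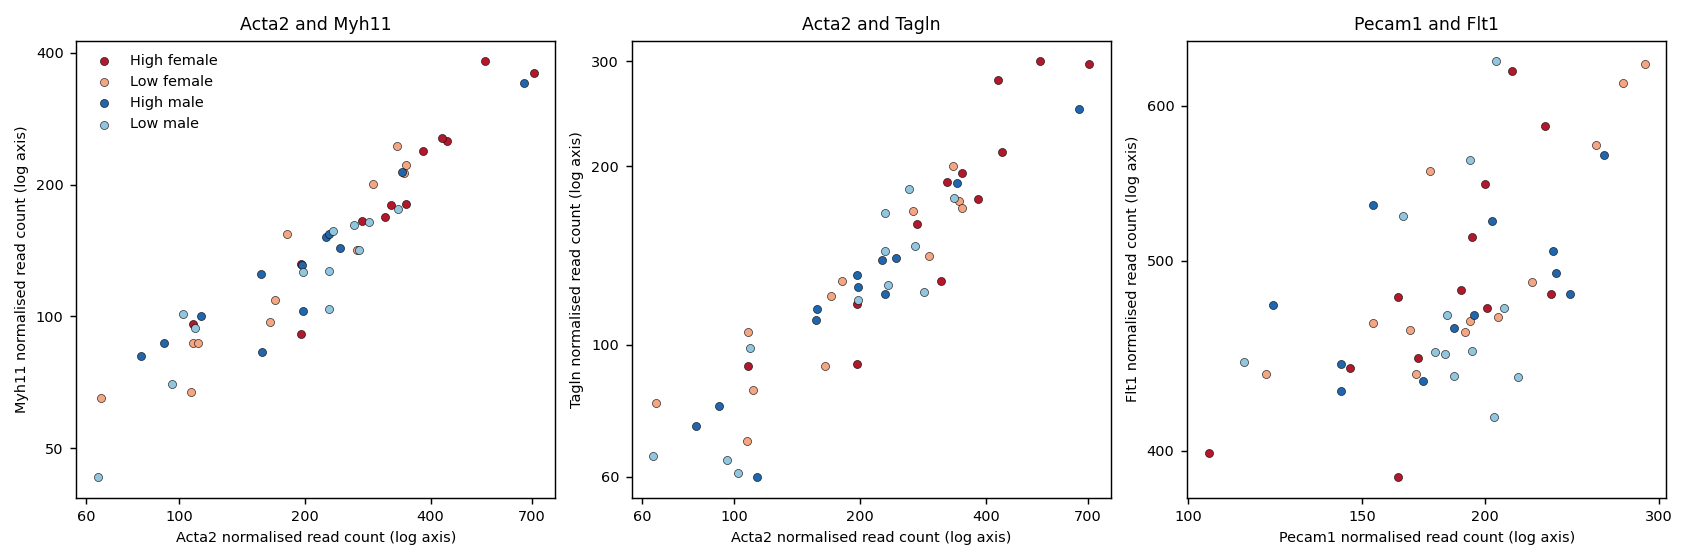
Normalised read counts of 3 gene pairs on log axes, 1 point per mouse, coloured by group. Acta2 rises with Myh11 and with Tagln in every group, from 64 to 706 for Acta2, while Pecam1 and Flt1 scatter more widely.

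Smooth muscle genes are known to share control by serum response factor, which binds the CArG box, a pair of C and a pair of G around an A/T core. The bases before the start of Acta2 are shown because its level moved most closely with the other smooth muscle genes. The RefSeq start is on the minus strand, and the 250 bases before it span chr19:34255374-34255623 of GRCm38.p6. No strict CArG box was found in this window. In capitals are the CArG boxes with 1 C or G in their core, at positions -84 and -34 from the start.
Acta2: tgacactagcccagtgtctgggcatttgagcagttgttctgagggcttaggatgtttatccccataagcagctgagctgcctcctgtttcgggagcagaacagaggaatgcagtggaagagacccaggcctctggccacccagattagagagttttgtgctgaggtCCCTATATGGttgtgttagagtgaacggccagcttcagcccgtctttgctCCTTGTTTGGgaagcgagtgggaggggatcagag
Among 32851 RefSeq promoter windows of 300 bases, 1.63% held a strict CArG box and 8.5% one with 1 C or G in the core, counting both strands. The second form was searched after the Acta2 sequence was seen, and it also occurs at position -120 of Slco1a4, an endothelial gene whose r with Acta2 was 0.04. Promoter windows were found for 6 of the 10 vascular genes: Cldn5, Flt1, Slco1a4, Ly6c1, Rgs5 and Acta2.

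The pair Cldn5 and Flt1 can be set side by side. The 250 bases before Flt1 span chr5:147726012-147726261 on the minus strand, and those before Cldn5 span chr16:18776597-18776846 on the plus strand, both of GRCm38.p6. In capitals is the motif AGGAAG, a core bound by the ETS family of transcription factors, many of which act in endothelial cells.
Flt1: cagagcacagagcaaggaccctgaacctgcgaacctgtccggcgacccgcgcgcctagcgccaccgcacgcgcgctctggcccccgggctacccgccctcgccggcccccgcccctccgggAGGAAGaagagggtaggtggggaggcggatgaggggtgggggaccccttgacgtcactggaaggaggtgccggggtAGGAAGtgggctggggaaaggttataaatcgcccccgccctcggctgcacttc
Cldn5: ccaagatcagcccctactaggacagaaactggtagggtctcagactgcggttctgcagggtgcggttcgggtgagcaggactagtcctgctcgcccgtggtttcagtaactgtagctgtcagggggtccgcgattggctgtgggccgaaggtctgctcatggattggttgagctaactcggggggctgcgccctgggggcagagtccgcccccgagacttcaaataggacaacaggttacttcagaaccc
Flt1 held the motif at positions -129 and -53, and Cldn5 held none on either strand. Of the other endothelial genes with a window, Slco1a4 held it at -104 on the opposite strand. Ly6c1 held it at -126, -38 and -34 before the start whose 250 bases span chr15:75048664-75048913. Before another Ly6c1 start, in chr15:75048838-75049087, it was not found. The motif occurs in 35.4% of the 32851 windows, and a match in sequence does not show binding.

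For each vascular gene, the 3 genes with the most similar pattern over the 48 mice were taken from the 11564 genes whose mean was at least 5 ppm. For Acta2, Tagln and Myh11 the same 3 genes came first, in the same order. They were Myl9, with r of 0.857, 0.767 and 0.819 for the 3 genes, then Mylk, the myosin light chain kinase, with 0.813, 0.747 and 0.767, and Crip1, a small LIM protein, with 0.761, 0.677 and 0.709. Flt1 was most like Cdh5, the endothelial cadherin, with an r of 0.604, and Ly6c1 most like Esam, an endothelial adhesion molecule, with 0.602. Without its 2 farthest mice Ly6c1 with Esam fell to 0.390. Cldn5 was most like Maz (0.642), a zinc finger factor, and Bsg (0.620), the basigin of brain endothelium. Pecam1 was most like Prnd (0.743), Chtf8 (0.716) and Cadm4 (0.714), Slco1a4 like Fam166a (0.658), Pdgfrb like Nphp4 (0.772), Rab36 (0.767) and Mbd6 (0.743), and Rgs5 like Itm2b (0.549). The genes were chosen for these values, which are a description.

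Other cell types moved with some of the vascular genes. Over 80 relations of a vascular gene with a mean log2 level of 8 marker lists, 6 passed. Genes outside the 10 were not tested against these lists, so the share of all genes that would pass is not known. Genes of leptomeningeal and perivascular fibroblasts, the cells that make the collagen around larger vessels, moved with Tagln (r = 0.697, rho = 0.697), Myh11 (r = 0.673, rho = 0.682) and Acta2 (r = 0.646, rho = 0.667), each at the smallest permutation p of 1e-05 for r and rho (adjusted p = 0.000267 for r). Without the 2 farthest mice r was 0.650, 0.610 and 0.570. Flt1 also moved with this list (r = 0.462, permutation p = 0.00125, adjusted p = 0.0167; rho = 0.452, p = 0.00183), and r was 0.399 without the 2 farthest mice. It no longer passed without High female replicate 6, High female replicate 10 or Low female replicate 12, with an r as low as 0.403.

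The fibroblast list held 12 genes, of which 10 were tested and 9 entered the mean; Pdgfra, also a growth factor receptor of the wider lists, was left out. Its summed level had a median of 1222 and a range of 1083 to 1631 in High females, against a median of 1202 and a range of 937 to 1708 in Low females. In males it ran from 884 to 1445 in the High line, against 910 to 1431 in the Low line. Col1a1 ran from 21 to 209 and Dcn from 17 to 159, and Lum reached 0 in its lowest library. The part of these cells in the smooth muscle pattern was not tested.

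Pdgfrb moved against the astrocyte list (r = -0.517, permutation p = 0.00044, adjusted p = 0.00704; rho = -0.464, p = 0.00151) and against the list of choroid plexus and ependyma (r = -0.513, permutation p = 0.00035, adjusted p = 0.007; rho = -0.470, p = 0.00124). Without the 2 farthest mice r was -0.417 and -0.487. The astrocyte sum ran from 20281 to 33913 over the 48 mice, with medians of 26420 in High females, 26392 in Low females, 27222 in High males and 24220 in Low males. The choroid plexus and ependyma sum was 179 to 687. The part of either cell type in the Pdgfrb level was not tested.

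The share of exon reads that fell in last exons, a measure of how far a library leans to the ends of transcripts, moved with 3 endothelial genes. It was computed over 17254 genes with 4 or more listed exons, and it was chosen as a measure after the data were seen. Pecam1 fell as the share rose (r = -0.606, permutation p = 1e-05, adjusted p = 0.0001; rho = -0.624, p = 1e-05), and r was -0.517 without the 2 farthest mice. Flt1 also fell (r = -0.362, permutation p = 0.0106, adjusted p = 0.0353; rho = -0.436, p = 0.00246; r = -0.296 without the 2). Slco1a4 rose (r = 0.538, permutation p = 9e-05, adjusted p = 0.00045; rho = 0.556, p = 0.0001; r = 0.539 without the 2). The other 7 genes did not pass the test over these 10 relations. Genes outside the 10 were not tested against the share, so it is not known whether such a relation is particular to these genes. The share itself averaged 53.2% in High and 52.8% in Low mice (permutation p = 0.66).

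With this share removed from both genes, 9 of the 45 pairs passed in place of 5. Pairs of other genes were not run this way, so no background stands beside that count. The 5 pairs named above were among the 9, with r of 0.936 for Acta2 and Myh11, 0.919 for Acta2 and Tagln, 0.869 for Tagln and Myh11, 0.490 for Pecam1 and Flt1 and 0.515 for Cldn5 and Flt1. The other 4 were Pecam1 with Rgs5 (r = 0.532, permutation p = 0.00042, adjusted p = 0.00378; rho = 0.496), Cldn5 with Pecam1 (0.458, p = 0.00169, adjusted p = 0.0109; rho = 0.490), Cldn5 with Rgs5 (0.422, p = 0.00545, adjusted p = 0.0272; rho = 0.343) and Cldn5 with Slco1a4 (0.406, p = 0.00426, adjusted p = 0.024; rho = 0.442). With the same share as a covariate in the line comparison, 77 genes were called in place of 43, and again 0 of the 10 vascular genes.

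Counts of single exons showed where on each gene these values lay. Flt1 had 33 listed exons on the minus strand of chromosome 5, with starts between 148373180 and 148537247 on mm9, and 2 of them held most of its reads. Exon 33, numbered in the direction of transcription, averaged 284 ± 41.2 normalised read counts (SD, n = 48), or 58.0% of the gene, and exon 14 averaged 137 ± 25.9, or 28.1%. No other exon averaged above 4.40. In GENCODE M21, exon 33 ends the transcript Flt1-202, with 1333 codons, and exon 14 ends Flt1-203, with 688 codons. Flt1 is known to make a membrane receptor and, by ending early in an intron, a shorter soluble form that binds VEGF without signalling.

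The terminal exons of both forms were present in all 48 mice. Exon 14 ran from 92 to 202 and exon 33 from 224 to 403. Exon 14 made up 31.9 ± 4.26% of the sum of both in High mice and 33.4 ± 5.54% in Low mice (SD, n = 24 each; two-sided permutation p = 0.278, adjusted p = 0.742). In females it made up 30.9% and in males 34.3%, a difference of -3.42 percentage points (permutation p = 0.0153, adjusted p = 0.123 over 8 measures), which did not pass. Exons differ in length, so these shares are not the shares of the transcripts.

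The terminal exons of Flt1 did not move together across mice (r = 0.137, permutation p = 0.376, adjusted p = 0.434; rho = 0.153, p = 0.311). Cldn5 moved with exon 33 (r = 0.548, permutation p = 0.00019, adjusted p = 0.000713 over 15 relations of exons, chosen after the data were seen; rho = 0.549, p = 0.00011; r = 0.503 without the 2 farthest mice), and its r with exon 14 was 0.225 (adjusted p = 0.22). The relation of Pecam1 with Flt1 split by the kind of exon. The terminal exons of Flt1 moved with the last exon of Pecam1 (r = 0.468, permutation p = 0.00135, adjusted p = 0.00405; rho = 0.452, p = 0.00205; r = 0.405 without the 2). The other exons of Flt1 moved with the other exons of Pecam1 (r = 0.690, permutation p = 1e-05, adjusted p = 7.5e-05; rho = 0.681, p = 1e-05; r = 0.601 without the 2). Across kinds of exon r was 0.031 (adjusted p = 0.841) and 0.176 (adjusted p = 0.296). The other exons of Flt1 summed to 68.1 ± 36.7, so that this part of the relation rests on few reads. Their sum was highest in High male replicate 1, at 207, and among Low females in Low female replicate 6, at 190. The last-exon shares of these libraries were low, at 44.9% and 47.4%. The part of that share in the relations between exons was not tested.

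Slco1a4 had 17 listed exons on the minus strand of chromosome 6, with starts between 141753961 and 141804645 on mm9. Exons 1 to 10 together averaged 36.2 ± 15.8, exons 11 to 16 averaged 204 ± 75.6 and exon 17 averaged 504 ± 113 (SD, n = 48). Low male replicate 12 had 30 in exons 1 to 10, 468 in exons 11 to 16 and 900 in exon 17, and Low male replicate 9 had 19, 448 and 834. In these 2 mice the high counts thus lay in exons 11 to 17, while exons 1 to 10 stayed below the median of 33.5. Low male replicate 12 had the highest last-exon share of the 48 libraries, 58.4%, and Low male replicate 9 had 54.1%, against a median of 53.2%. The part of that share in these counts was not tested. Across the 48 mice exons 11 to 16 moved with exon 17 (r = 0.744, permutation p = 1e-05, adjusted p = 7.5e-05; rho = 0.713, p = 1e-05; r = 0.687 without the 2 farthest mice). Exons 1 to 10 had an r of 0.069 with exons 11 to 16, which did not pass. Exons 11 to 16 averaged 179 ± 42.4 in High and 229 ± 92.6 in Low mice (permutation p = 0.0186, adjusted p = 0.148), and exon 17 averaged 477 ± 81.3 in High and 532 ± 135 in Low mice (permutation p = 0.0956, adjusted p = 0.383). Of the words of Slco1a4 transcripts, 4.64% also occur in Slco1a5, which was listed at 0 to 3.

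**Figure D5:**
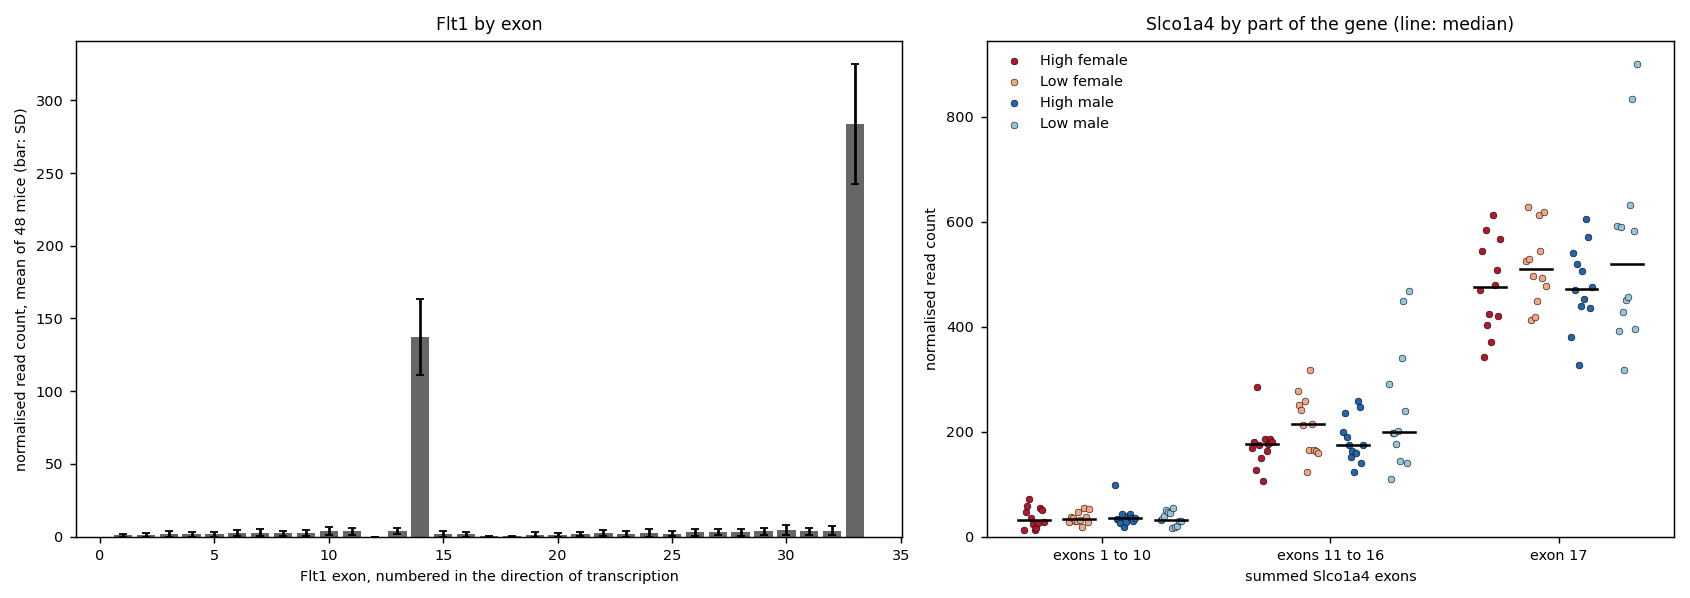
Left, mean normalised read count of each Flt1 exon (vertical axis, bars from 0, error bars SD, n = 48 mice) by exon number; exons 14 and 33 stand at 137 and 284. Right, summed counts of 3 stretches of Slco1a4 in 4 groups of 12 mice; 2 Low males reach 448 and 468 in exons 11 to 16 with 19 and 30 in exons 1 to 10.

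The share of the last exon was also compared for the 9 vascular genes with more than 1 listed exon, since Cldn5 has a single one. It ranged from 29.5% of the pooled counts for Acta2 and 32.2% for Myh11 to 97.2% for Rgs5. In Pdgfrb it was 66.4%, in Pecam1 49.1%, in Tagln 49.9% and in Ly6c1 76.8%. No share differed between High and Low mice in a two-sided permutation test. The smallest p was that of Slco1a4, at 68.9 ± 4.81% in High and 67.2 ± 4.42% in Low mice (permutation p = 0.213, adjusted p = 0.902).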

How the data were processed

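RNA of the nucleus accumbens shell of 48 mice was measured, 1 library per mouse. The authors deposited a gene table and an exon table whose values are treated as a score: normalised read counts, as the tables are named, rounded to whole numbers, so no count test was run. The build was mm9, and edgeR 3.4.2, R 3.0.2, STAR 2.4.0, FastQC and CASAVA are named, per the submitters' processing notes. The counter, strand setting, annotation release and normalisation method are not given in the sources used here, so reads of overlapping antisense genes cannot be told apart.

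Depth before normalisation is unknown, so no counting interval is given; column totals are in the report. Groups came from the labels; replicate numbers only name mice. The 15350 genes reaching 1 ppm in 12 libraries or more entered a limma 3.58.1 fit, run in R 4.3.3 (mean-variance trend, 48 libraries in 1 fit, contrasts for line, line within sex, interaction and sex, and absolute deviations for spread), on log2(value + 0.5 ppm), which understates changes of low genes. Correlations and exon measures used permutations in Python 3.11.15 with numpy 2.4.6, pandas 2.3.3 and scipy 1.17.1; figures used matplotlib 3.10.9. The planned tests were tested on simulated data. The permutation tests of measures added after the data were seen were not. These were the relations with the last-exon share of the library, the pairs with that share removed, and the parts of Flt1 and Slco1a4. Symbols, exon order and shared words came from GENCODE M21, matched by Ensembl identifier (32897 of 37620 genes), and promoters from RefSeq (GRCm38.p6); exon positions are those deposited on mm9, with none converted between builds.

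All 10 vascular genes were named in every comparison; of the wider lists, the called genes up to 4, or, with none called, the 2 of lowest p, in the line comparison, and only called genes in the others. The members and lists were chosen with earlier results of these data known. Alternatives were other pseudocounts (0.1 and 2 ppm), no filter, columns rescaled to equal totals or by median ratio, library weights, fits of 1 sex, leaving out each library, and a minimum of 0.1 ppm per exon. The last-exon share as a covariate and the longest transcript as length were added after the data were seen.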

Additional observations from a re-analysis of the deposited data

How the results depend on the processing

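Of 920 alternative values of single vascular genes and pairs, 866 kept their direction and their side of the threshold, 43 changed direction, 10 came to pass it and 1 no longer passed. From leaving out single libraries, only the lowest and highest value of each result entered these totals. Counted over every library left out, Cldn5 with Rgs5 came to pass in 20 runs. Flt1 with the fibroblast list no longer passed in 3, and Flt1 with Slco1a4 changed direction in 25. None of the 10 vascular genes was called under any alternative run, leave-one-out included (0 to 0 of the 10 in each comparison). With library weights 80 genes were called by line in place of 43, 7 in females in place of 4 and 15 for spread in place of 9. With no filter on low values 2 genes were called in females and 15 for spread, and with 1 sex in the fit 1 gene was called in females. With the last-exon share as a covariate 77 genes were called by line, and with that share removed 9 pairs passed in place of 5; both were chosen after the data were seen. The cause of these changes was not tested.

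Leaving out single libraries gave 30 to 58 genes by line, 2 (without Low female replicate 1) to 8 (without Low female replicate 5) in females, 0 to 1 (without High male replicate 6) in males, 0 to 0 for the interaction, 12 to 13 by sex, 5 (without High female replicate 9) to 10 for spread, 5 to 7 pairs of vascular genes and 5 to 7 relations with cell type lists. Cldn5 with Rgs5 came to pass with either other pseudocount, at 0.414 and 0.415.

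Values near 0 changed sign. With library weights Flt1 was 0.023 and Rgs5 0.0082 by line, Pecam1 -0.0072 in males, Slco1a4 -0.028 for the interaction, Cldn5 -0.0032, Pdgfrb 0.0052 and Rgs5 -0.0058 by sex, and Flt1 0.021 and Acta2 0.0026 for spread. With the last-exon share as a covariate Pecam1 was -0.012 in males and Slco1a4 -0.080 for the interaction. Flt1 with Slco1a4 had an r of -0.00089 with a pseudocount of 2 ppm and -0.0088 with equal totals, and with the share removed Pecam1 with Slco1a4 was 0.22 and Slco1a4 with Acta2 -0.054. Leaving out single libraries changed the sign of further values near 0. In the line comparison the difference ran from -0.029 to 0.0057 for Flt1, -0.0397 to 0.018 for Pdgfrb and -0.038 to 0.0089 for Rgs5. In females the difference ran from -0.077 to 0.0038 for Cldn5. In males the difference ran from -0.039 to 0.074 for Pecam1, -0.076 to 0.19 for Acta2 and -0.048 to 0.13 for Tagln. For the interaction the difference ran from -0.055 to 0.069 for Slco1a4 and -0.30 to 0.27 for Ly6c1. In the sex comparison the difference ran from -0.012 to 0.033 for Cldn5, -0.0061 to 0.057 for Pecam1 and -0.036 to 0.018 for Pdgfrb. For spread between mice the difference ran from -0.026 to 0.0074 for Cldn5, -0.016 to 0.012 for Flt1, -0.098 to 0.0083 for Acta2, -0.016 to 0.037 for Tagln and -0.071 to 0.0197 for Myh11. Among correlations r ran from -0.031 to 0.19 for Cldn5 with Tagln, -0.018 to 0.13 for Pecam1 with Tagln, -0.061 to 0.059 for Flt1 with Slco1a4, -0.052 to 0.15 for Flt1 with Pdgfrb, -0.00052 to 0.15 for Flt1 with Acta2, -0.0027 to 0.14 for Flt1 with Tagln, -0.015 to 0.11 for Slco1a4 with Pdgfrb, -0.044 to 0.12 for Slco1a4 with Acta2, -0.16 to 0.024 for Slco1a4 with Tagln, -0.0074 to 0.13 for Slco1a4 with Myh11 and -0.0016 to 0.15 for Ly6c1 with Pdgfrb.

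No paired analysis was possible because the labels give no replicate numbers shared between groups. Raw depth is unknown, and low exon sums rest on few reads.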
